A study of Mus musculus with 6 samples.

Results

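Gamma-delta T cells were examined in single-cell RNA libraries of mouse mammary tumours. They are the T cells whose receptor is built from a gamma and a delta chain. They were chosen by raw counts of unique molecular identifiers (UMIs, 1 per captured RNA molecule). Cells under 500 UMIs or 200 genes, or over 20% mitochondrial UMIs, were left out. A chosen cell had a UMI of the CD3 genes Cd3e, Cd3d or Cd3g and of Trdc, the delta chain constant gene. It had none of Cd4, Cd8a, Cd8b1, Gzmc, Gzmf, Ncr1 or Epcam. This gave 524 of the 23144 cells that passed the filters (24603 were deposited) and of 7844 CD3-positive cells.

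The tumours carried an MMTV-Wnt1 transgene, driven by a mammary tumour virus promoter, and an inducible FGF receptor that a dimerizer drug activates. The labels write the genotypes as MMTV-Wnt1/iFGRR1 to MMTV-Wnt1/iFGRR6, 1 running number per library, and give the strain of all mice as FVB (FVB.rGH-Luc-GFP). Tumours were transplanted and the dimerizer was injected until growth no longer needed it, in 1 protocol text that all groups share. Primary tissue came from mice of 8 to 10 weeks, and the labels name no further treatment for it alone. The other groups received the FGF receptor inhibitor NVP-BGJ398 by gavage for 14 days. Dormant tissue (10 to 12 weeks) was collected after another 14 days without drug. Recurrent (20 to 22 weeks) and Long-term dormant tissue (32 to 34 weeks) came from mice kept longer. IgG and Jag1 mice (16 weeks) received control antibody or anti-Jagged-1 at 15 mg/kg weekly for 5 weeks in the dormant state, and tissue was taken 1 week later. Jagged-1 is a ligand of Notch receptors. Each group was 1 library, and values given in a row follow the order Primary, Dormant, Long-term dormant, Recurrent, IgG, Jag1 unless said otherwise. The first 4 were made with kit version 2 and the antibody arms with version 3. No group had a replicate, so differences between libraries have no test, and intervals below are 95% intervals for counting error only. Whether a library pooled several mice is not given in the sources used here.

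In mice, gamma-delta T cells arise in the thymus in waves that use different gamma variable genes and settle in different tissues. Many leave the thymus already committed. One kind makes interferon gamma and carries killer-cell receptors and CD27, and the other makes interleukin 17, responds to interleukin 1 and interleukin 23, and lacks CD27. Barrier tissues such as the epidermis, and glands derived from it, hold resident gamma-delta T cells.

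The label was first checked on receptor genes that played no part in the choice. The mouse gamma chain has 4 constant genes on chromosome 13 (mm10), Tcrg-C1 at 19214103 to 19217024 on the plus strand, Tcrg-C3 at 19260884 to 19263528 on the plus strand, Tcrg-C2 at 19304649 to 19307551 on the minus strand and Tcrg-C4 at 19344558 to 19352756 on the plus strand. A stretch of each transcript is shown because near-identical copies can limit which of them a read can be assigned to. The stretches are spliced from GENCODE vM21 transcripts on GRCm38 (mm10) and start at transcript base 294. Capitals mark, in Tcrg-C1, the 15 bases that Tcrg-C2 lacks and, in the other genes, bases that differ from Tcrg-C1 or are added to it.
Tcrg-C1: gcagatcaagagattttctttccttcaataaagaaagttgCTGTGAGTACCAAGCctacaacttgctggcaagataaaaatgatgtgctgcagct
Tcrg-C2: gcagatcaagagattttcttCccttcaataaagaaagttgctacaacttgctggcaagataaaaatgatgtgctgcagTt
Tcrg-C3: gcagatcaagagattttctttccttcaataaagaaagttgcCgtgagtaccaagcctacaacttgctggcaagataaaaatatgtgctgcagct
Tcrg-C4: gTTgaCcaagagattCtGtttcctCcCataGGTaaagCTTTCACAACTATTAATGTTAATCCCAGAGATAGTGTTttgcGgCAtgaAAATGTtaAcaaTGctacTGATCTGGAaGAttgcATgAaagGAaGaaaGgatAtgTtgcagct

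Over the aligned transcripts, Tcrg-C2 was 96.0%, Tcrg-C3 97.2% and Tcrg-C4 71.3% identical to Tcrg-C1. The kits read the 3′ end of transcripts. Over the last 300 bases of Tcrg-C1, Tcrg-C2 had 281 identical and 19 mismatched bases, and Tcrg-C4 had 174 identical and 114 mismatched. Tcrg-C3 had 24 identical and 0 mismatched bases aligned there. The stretch shown ends at base 388 of the 924 of Tcrg-C1, before these 300 bases. Counts of Tcrg-C1, Tcrg-C2 and Tcrg-C3 may be uncertain among themselves, and how many reads were affected was not tested. The share of cells with any of the 4 genes is the safer measure.

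That share was 84%, 45.3%, 56.7%, 81.6%, 66.2% and 73.4%. CD8 T cells met the same conditions but had a CD8 UMI and none of Trdc, and they gave 25.2%, 20.7%, 25%, 36.1%, 21.7% and 16.3%. CD4 T cells, defined likewise by Cd4 and without Foxp3, gave 2.71% to 41.5%, with the 2 highest values in Primary and Recurrent, and myeloid cells gave at most 2.13%. Each library thus held a higher share in the gamma-delta cells than in its CD8 T cells. The constant gene of the alpha chain, Trac, was found in 6.67% to 22.4% of gamma-delta cells and in 40% to 85.8% of CD8 T cells. Set against CD8 T cells, the gamma chain and Trac thus both went with the label, though cells with a Trac UMI remain among the 524. Killer lymphocytes, cells with Gzmc or Gzmf that are compared further below, also held gamma chain RNA. Of 3 gamma chain genes tested against them, 1 was called higher in gamma-delta cells. Beta chain RNA was common in gamma-delta cells too, with the constant gene Trbc1 in 52% to 73% of them. The other constant gene, Trbc2, was called lower than in CD8 and CD4 T cells in the edgeR fits given below. Against CD4 T cells its log2 fold change was -0.87 ± 0.21 (adjusted p = 0.0165), and Trbc1 did not pass, at -0.32 ± 0.15 (adjusted p = 0.205).

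The rule cut close to many cells. Of the 524 cells, 142 had 1 Trdc UMI, 98 had 2 and 284 had 3 or more, up to 53. Just outside, 2407 CD3-positive cells met every other condition and had no Trdc UMI, 175 failed only for Ncr1, a natural killer receptor, 68 only for CD8, 50 only for Gzmc or Gzmf, and 18 only for Cd4. A missing Trdc or CD8 UMI at this depth does not show that the RNA was absent. Dormant cells with and without a Tcrg-C UMI were close in 3 genes: Nkg7 was found in 79.2% and 82.8%, Klrd1 in 66.7% and 64.7%, and Fcer1g in 54.2% and 61.2%. Cd163l1 was in 5 of the 96 with and 0 of the 116 without. In Primary (42 and 8 cells) Klrd1 was in 66.7% and 37.5% and Fcer1g in 76.2% and 50%. Killer lymphocytes hold Nkg7, Klrd1 and Fcer1g too, so likeness in these genes does not show that cells without Tcrg-C are gamma-delta T cells.

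Depth per gamma-delta cell was uneven. The 6 libraries gave 50, 212, 30, 49, 74 and 109 cells, with median UMIs of 2875.5, 2355, 1746, 3201, 4634.5 and 5876. Libraries of the stage table shared 26 to 50 cell barcodes per pair and IgG and Jag1 shared 131, which is 6.14% of the smaller library. Of the gamma-delta cells, 6 had a barcode that also occurred in another library of the table. Scrublet, a doublet caller, marked 2 Recurrent and 1 Jag1 cell of the 524. It marked 0 of 3276 Dormant cells and under 0.3% of the antibody libraries, so it did not work there.

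Among CD3-positive cells, gamma-delta T cells made up 4.23% to 11.4%, with the highest value in Dormant by the rule as given. In Primary the share was 6.17% (interval 4.62 to 8.06) and in Dormant 11.4% (9.95 to 12.9). Long-term dormant had 6.49% (4.42 to 9.14) and Recurrent 7.88% (5.88 to 10.3). It was 4.23% in IgG (3.33 to 5.28) and 4.67% in Jag1 (3.85 to 5.61). The intervals of IgG and Jag1 overlap, and the Dormant interval overlaps only that of Recurrent among the stage libraries. When each cell was thinned to 1000 UMIs and the rule applied again, the stage shares became 9.48%, 10.0%, 5.68% and 9.18%. The intervals of Dormant and Primary then overlapped. Thinning also removes UMIs of the excluding genes, so these are not the same cells at lower depth. Primary went from 50 to 53 cells although 3 of the 50 were too shallow to thin, and Dormant went from 212 to 132. In Primary 28 cells had failed the rule only for Gzmc or Gzmf and 8 only for Ncr1. Whether these entered was not tested. Of all cells that passed the filters, gamma-delta T cells were 1.16%, 6.47%, 0.50%, 1.05%, 3.49% and 3.99%. When a Tcrg-C UMI was asked for as well, Dormant was no longer highest, at 5.14% of CD3-positive cells against 5.19% in Primary and 6.43% in Recurrent. The denominator of all cells moves with every other cell type in the library.

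**Figure D1:**
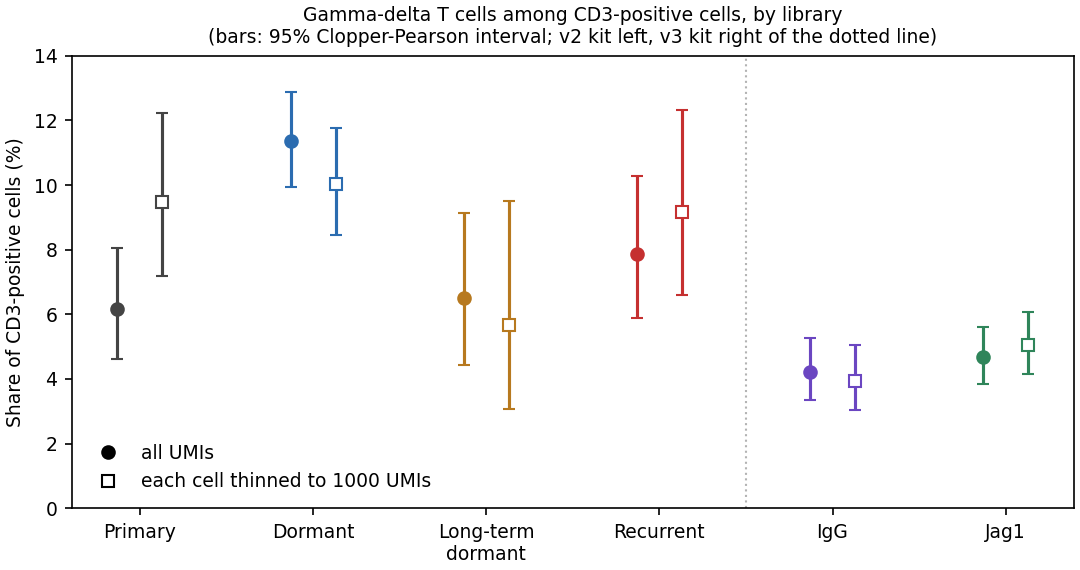
Share of CD3-positive cells that were gamma-delta T cells (vertical axis, percent) in each library (horizontal axis), with all UMIs (filled circles) and with each cell thinned to 1000 UMIs (open squares). Bars are 95% Clopper-Pearson intervals. Dormant is highest with all UMIs at 11.4%, and Primary, Dormant and Recurrent lie between 9.18% and 10.0% after thinning.

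Most gamma-delta T cells in most libraries carried RNA of genes listed for the interferon gamma (type 1) kind rather than of those for the interleukin 17 (type 17) kind. The type 1 genes were not found alike. Among cells that met only the type 1 definition given below, Ifng was in 1 of 42 Primary, 14 of 201 Dormant and 3 of 47 Recurrent cells. It was in 7 of 65 IgG and 13 of 90 Jag1 cells. Cd27 was in 7, 110, 12, 46 and 77 of these cells, in the same order. Nkg7, which codes for a protein of cytotoxic granules, was found in 81.1% to 89.2% of the cells of the Primary, Dormant, Recurrent, IgG and Jag1 libraries. Klrd1, which codes for CD94 of the killer lectin receptors, was found in 62% to 76.1%, and Il2rb, the receptor chain for interleukin 2 and 15, in 61.2% to 93.2%. Long-term dormant stood apart, with 26.7%, 20% and 26.7% of its 30 cells. Cd163l1, which codes for a scavenger receptor found on interleukin 17 producing gamma-delta T cells, was in 53.3% of the Long-term dormant cells and in 2.04% to 14.7% elsewhere. CD8 T cells of that library had no Cd163l1 UMI.

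**Figure D2:**
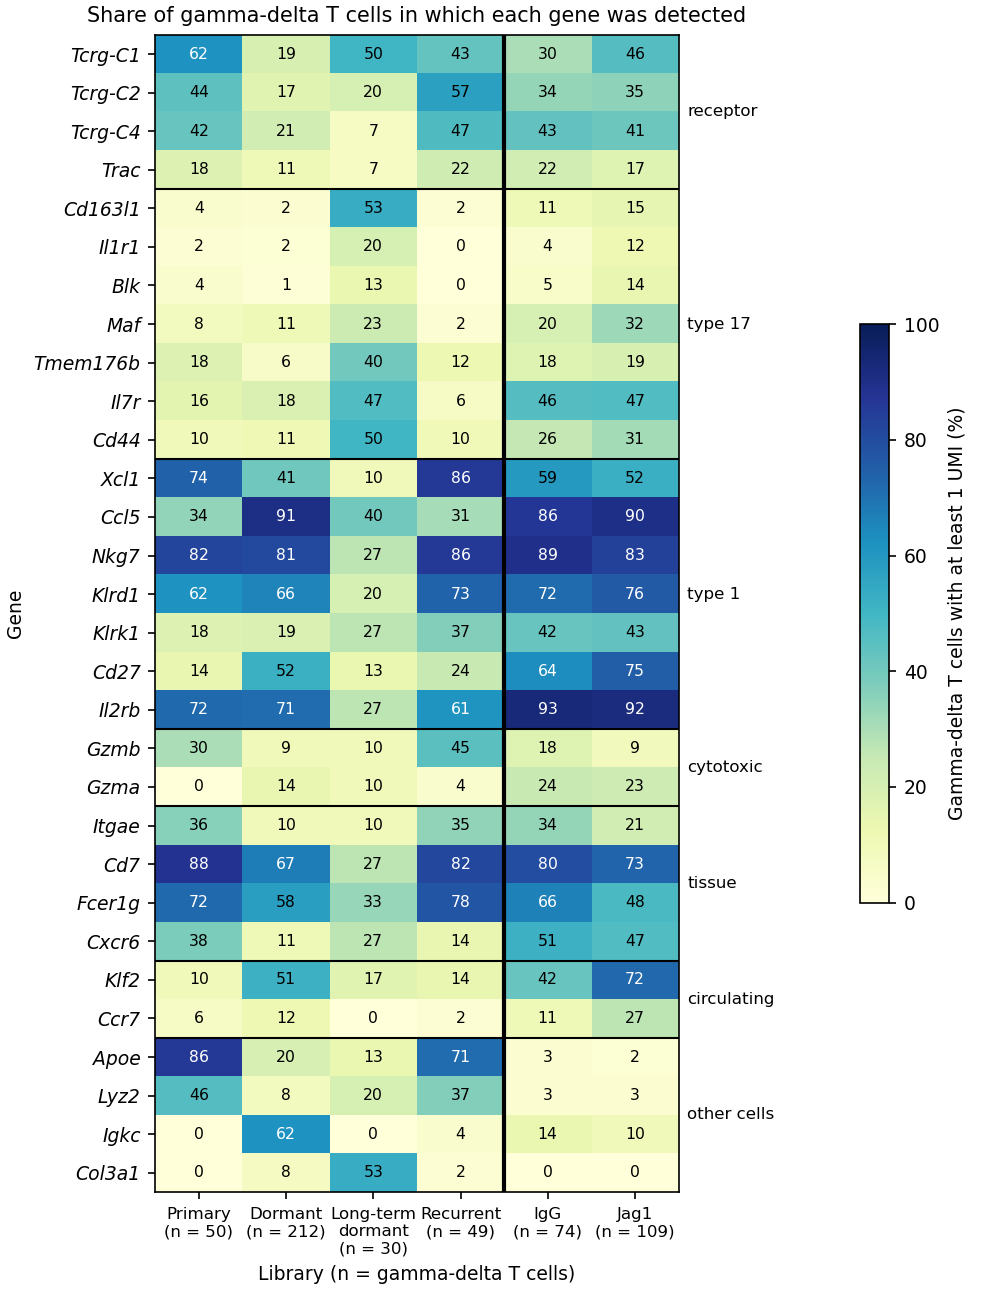
Percent of gamma-delta T cells with at least 1 UMI of each gene (rows, grouped by role) in each library (columns, with the number of cells), on a colour scale from 0 to 100%. The thick line separates kit version 2 from version 3. Long-term dormant shows Cd163l1 in 53% and Nkg7 in 27% of cells, and the lowest block marks RNA of other cell types such as Apoe in 86% of Primary cells.

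Gamma-delta T cells were compared with the CD8 T cells of the same libraries, with UMIs summed per cell class and library. The fit was edgeR's quasi-likelihood test with library as a block and Benjamini-Hochberg adjustment over 3745 genes, and the genes used to define the classes were left out of the calls. In 6 libraries, 116 genes (3.1%) were higher and 69 (1.84%) lower in gamma-delta T cells at an adjusted p under 0.05. Libraries are separate tissues, but 2 cell classes of 1 library share its free RNA and handling. The 4 stage libraries alone gave 5 higher and 6 lower, and without the library block 3 genes were higher and 1 lower, so most calls rest on the antibody libraries and on comparing classes within a library.

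Receptor genes came first. Tcrg-C1 was at 447, 85.1, 469, 229, 143 and 194 CPM (UMIs per 1000000 UMIs of the class) in the gamma-delta cells. In CD8 T cells it was at 44.1, 11.0, 6.74, 30.9, 11.1 and 8.83 CPM. The sets did not overlap, and the log2 fold change was 3.71 ± 0.22 (SE; adjusted p = 8.30e-09). Tcrg-C4 was higher by 2.60 ± 0.20 (adjusted p = 1.88e-07) and Tcrg-C2 by 0.98 ± 0.17 (adjusted p = 0.00277), so all 3 gamma chain genes tested were higher. Trac was lower in 6 of 6 libraries, at -3.01 ± 0.16 (adjusted p = 2.31e-09). These genes follow from a choice on Trdc and are given as a check of it.

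Outside the receptor, Spry2 showed the clearest difference. Spry2 codes for Sprouty 2, a feedback inhibitor of receptor tyrosine kinase and Ras signalling. It stood at 85.7, 146, 181, 80.1, 168 and 72.3 CPM in gamma-delta cells and at 20.6, 25.1, 33.7, 7.73, 14.5 and 10.7 CPM in CD8 T cells, in the same library order. The lowest gamma-delta value was above the highest CD8 value, and the log2 fold change was 2.83 ± 0.20 (adjusted p = 7.91e-08). Together with Tcrg-C1, Tcrg-C4 and Trac it kept its call in all 16 alternative fits.

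Signalling genes of the T cell receptor were lower or did not pass. Of 12 list genes tested, 0 were higher and 4 lower, with a median log2 fold change of -0.37 beside -0.02 over all 3745 genes. Cd5, a brake on receptor signalling, had a mean of 22.3 CPM in gamma-delta and 109 CPM in CD8 T cells and was lower in 6 of 6 libraries (-2.36 ± 0.24, adjusted p = 1.02e-05). Its relative Cd6 was lower, at -2.21 ± 0.21 (adjusted p = 6.43e-06). The costimulatory receptor gene Cd28 was lower, at -1.52 ± 0.29 (adjusted p = 0.00475) and the adaptor gene Lat at -0.97 ± 0.15 (adjusted p = 0.000827). Cd28 lost its call without the IgG or without the Jag1 library.

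Several genes of epidermal gamma-delta cells were higher, while the natural killer list divided, with 2 of 4 tested genes higher and 1 lower. Fcer1g, a signalling adaptor of Fc and activating receptors, was at 1273, 553, 423, 1247, 729 and 326 CPM in gamma-delta cells against 385, 181, 344, 750, 29.7 and 18.9 CPM in CD8 T cells. It was higher in 6 of 6 libraries, with little separation in Long-term dormant (log2 fold change 2.19 ± 0.43, adjusted p = 0.00650). Of 5 tested genes of the list for epidermal gamma-delta cells, 3 were higher: Fcer1g, Cd7 (1.24 ± 0.17, adjusted p = 0.000545) and Itgae, the integrin that holds T cells to epithelium (1.04 ± 0.26, adjusted p = 0.0290). Itgae lost its call without IgG or Jag1. Ikzf2, which codes for the transcription factor Helios, was higher in 6 of 6 libraries by 1.57 ± 0.24 (adjusted p = 0.000827). The myeloid list also holds Fcer1g and Tyrobp, and these 2 were its only higher members, while Lyz2, a macrophage gene that marks free RNA, was lower, at -1.28 ± 0.35 (adjusted p = 0.0457). Lyz2 and Tyrobp each kept their call in 5 of 16 alternative fits. Lyz2 lost it without any 1 of the libraries other than Primary, and Tyrobp without Primary, Recurrent, IgG or Jag1.

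The type 1 list divided. Of 17 genes tested, 4 were higher and 4 lower, with a median of -0.25. Xcl1, a chemokine that attracts cross-presenting dendritic cells, was higher by 1.37 ± 0.28 (adjusted p = 0.00813), with Long-term dormant going the other way at 106 against 283 CPM. Il2rb was higher by 0.73 ± 0.14 (adjusted p = 0.00501) in 6 of 6 libraries. Ccl5, a chemokine of effector cells, was lower, at -1.42 ± 0.23 (adjusted p = 0.00123), and Nkg7 at -0.65 ± 0.11 (adjusted p = 0.00266). Ifng itself was lower, at -1.0 ± 0.21 (adjusted p = 0.00895), and 6 of 15 alternative fits did not call it, among them the fits without Dormant, IgG or Jag1. Xcl1 lost its call without IgG and without Jag1.

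The cytotoxic list divided too, with 2 of 6 genes higher and 2 lower. Gzma, a granzyme, was at 0, 192, 75.6, 34.3, 925 and 365 CPM in gamma-delta cells and at 5.88, 97.5, 74.2, 0, 124 and 122 CPM in CD8 T cells, a log2 fold change of 1.78 ± 0.28 (adjusted p = 0.00123). The difference lay mainly in Dormant and the antibody libraries. Prf1, the pore-forming perforin, was lower in 6 of 6 libraries (-1.13 ± 0.26, adjusted p = 0.0176). Proliferation genes were lower in 3 of 5 tested, with Top2a at -1.53 ± 0.31 (adjusted p = 0.00824). Inhibitory receptor genes were lower in 2 of 4, Ctla4 at -1.74 ± 0.28 (adjusted p = 0.00123) and Pdcd1 at -1.19 ± 0.25 (adjusted p = 0.0102). Top2a lost its call without Jag1, Pdcd1 without IgG and without Jag1, and Ctla4 under DESeq2.

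Genes of the type 17 list were mostly higher, with 5 of 7 tested genes higher, 0 lower and a median of 0.77. Only 7 of its 24 genes passed the filter on low counts. Tmem176a, a membrane protein gene, was higher by 2.75 ± 0.42 (adjusted p = 0.000910) and its neighbour Tmem176b by 2.31 ± 0.45 (adjusted p = 0.00650). They were closer to CD8 T cells in Dormant, at 40.8 against 24.5 and 32.3 against 32.5 CPM. In Recurrent they were at 34.3 against 30.9 and 97.3 against 64.4 CPM. Ramp1 (1.24 ± 0.27, adjusted p = 0.0115), a receptor component for a neuropeptide, and Il7r (0.75 ± 0.18, adjusted p = 0.0257), the interleukin 7 receptor, were higher too. Maf (0.77 ± 0.22, adjusted p = 0.0495), a transcription factor of the type 17 state, passed narrowly and kept its call in 3 of 15 alternative fits. Tmem176b, Ramp1 and Il7r lost theirs without IgG and without Jag1. With the 4 stage libraries alone, Tmem176a lost its call as well.

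**Figure D3:**
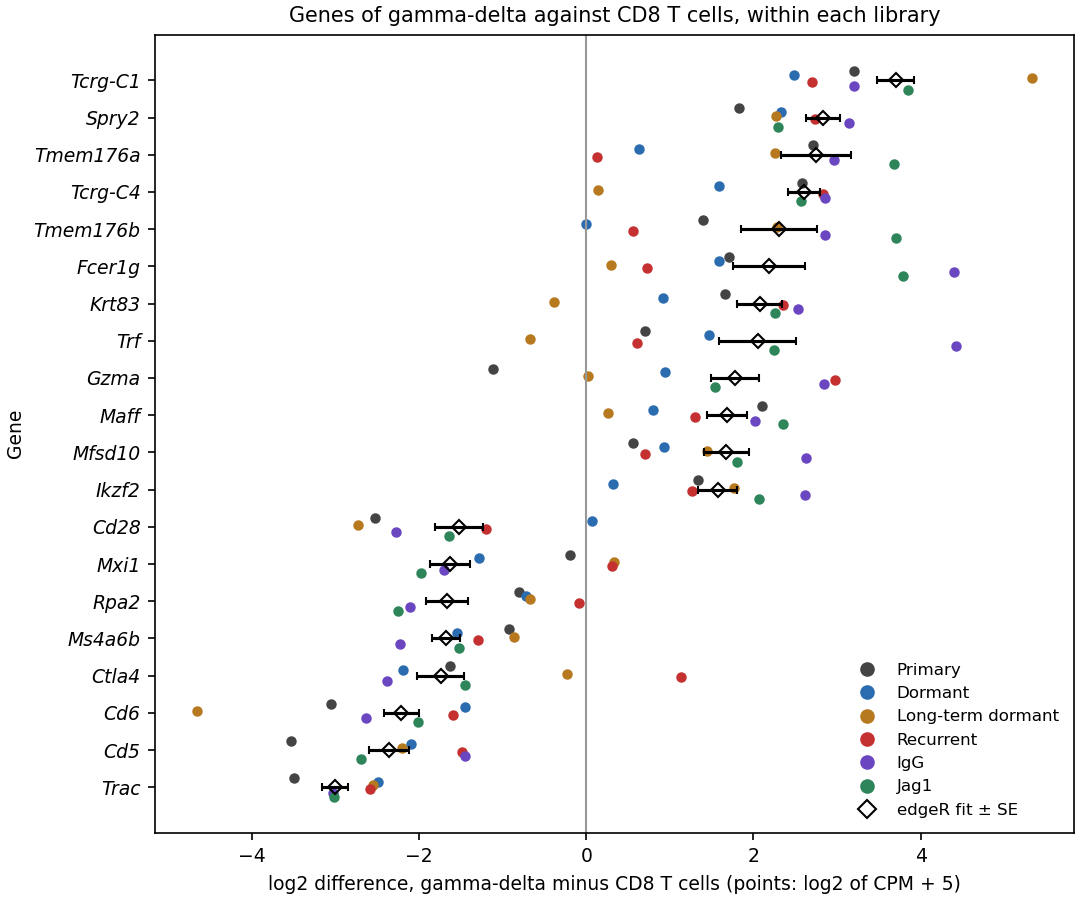
Difference between gamma-delta and CD8 T cells of the same library for named genes (horizontal axis, log2 of CPM with 5 CPM added, 1 point per library, coloured) and the edgeR log2 fold change with its SE (open diamonds). Tcrg-C1 and Spry2 lie to the right of 0 in 6 of 6 libraries, and Trac, Cd5 and Cd6 to the left in 6 of 6.

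Against CD4 T cells of the same 6 libraries, 171 of 3138 genes (5.45%) were higher and 189 (6.02%) lower. Gzmb, a granzyme, averaged 440 CPM in gamma-delta and 23.7 CPM in CD4 T cells (log2 fold change 3.52 ± 0.35, adjusted p = 2.05e-05). Xcl1 was higher by 3.18 ± 0.28 (adjusted p = 7.16e-06) and Spry2 by 3.64 ± 0.31 (adjusted p = 7.16e-06), each in 6 of 6 libraries. Of 12 type 1 genes tested, 6 were higher and 0 lower, with a median of 1.37 beside 0.01 over all genes. Besides Xcl1, this list held killer receptor genes, with Klrk1 (NKG2D) at 2.91 ± 0.24 (adjusted p = 5.38e-06) and Klrc1 at 2.71 ± 0.42 (adjusted p = 0.000970).

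The lower side held genes of several kinds, with 3 of 6 tested genes of the regulatory T cell list and 5 of 12 of receptor signalling. Tnfrsf4, the costimulatory receptor OX40, was lower, at -4.23 ± 0.37 (adjusted p = 7.16e-06), and Ctla4 at -3.52 ± 0.35 (adjusted p = 2.54e-05). Areg, the growth factor amphiregulin, was lower, at -3.14 ± 0.45 (adjusted p = 0.000623). Of 4 inhibitory receptor genes tested, 3 were lower. The type 17 list had 0 higher and 1 lower of 7, Maf at -2.0 ± 0.31 (adjusted p = 0.000898). Myeloid genes were lower as well, 5 of 7 tested, with C1qa at -2.38 ± 0.30 (adjusted p = 0.000202) and Lyz2 at -2.45 ± 0.46 (adjusted p = 0.00385). Macrophage RNA therefore moved with this contrast, and its part in the other differences was not tested. Without Jag1 the counts dropped to 37 higher and 66 lower, without IgG to 102 and 102, and without Dormant to 71 and 105. The 4 stage libraries alone gave 21 and 50.

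Killer lymphocytes, cells with a Gzmc or Gzmf UMI and none of Cd4 or Epcam, were kept out by the rule although many had Trdc, 39.4% in Primary. CD3, CD8, Ncr1 and Trdc were not used to choose them, so alpha-beta T cells can be among them. The class reached the minimum of 20 cells in Primary, Dormant, Recurrent and Jag1. There 52 of 3193 genes (1.63%) were higher and 15 (0.470%) lower in gamma-delta T cells. Tcrg-C1 averaged 239 CPM against 90.3 CPM (log2 fold change 1.48 ± 0.30, adjusted p = 0.0163). Tcrg-C2 and Tcrg-C4 did not pass, at 0.61 ± 0.20 and 0.86 ± 0.26 (adjusted p = 0.155 and 0.107). In Dormant Tcrg-C4 went the other way, at 97.0 against 174 CPM. Trac was lower in 4 of 4 libraries, at -1.80 ± 0.20 (adjusted p = 4.64e-05), with means of 65.3 against 255 CPM. Killer lymphocytes of Primary held Tcrg-C1 at 217 CPM and Tcrg-C2 at 203 CPM, against 447 and 379 CPM in its gamma-delta cells. Il7r was higher by 1.61 ± 0.33 (adjusted p = 0.0167) and Cd27, a costimulatory receptor, by 0.92 ± 0.19 (adjusted p = 0.0172). Of 7 tested genes of the type 17 list, Il7r was the only 1 called higher and 0 were lower. Tmem176a, Tmem176b, Ramp1 and Maf, higher against CD8 T cells, were not called here. Gzmb was lower in 4 of 4 libraries, at -1.64 ± 0.19 (adjusted p = 5.11e-05) and Gzma at -2.14 ± 0.29 (adjusted p = 0.000308), granzymes next in kind to those that defined the other class. Tyrobp, Xcl1 and Fcer1g were also lower, at -1.55 ± 0.37, -0.74 ± 0.17 and -0.69 ± 0.15 (adjusted p = 0.0342, 0.0288 and 0.0205). Of 7 tested genes of the epidermal list 0 were higher and 1, Fcer1g, lower. Cd7 was at -0.10 ± 0.12 and Itgae at -0.01 ± 0.23, and Ikzf2 did not pass (adjusted p = 0.199). The genes of that list that were higher against CD8 T cells were thus not higher against killer lymphocytes. Il7r lost its call without Primary and without Jag1, Cd27 without Recurrent and without Jag1, and Xcl1 and Fcer1g without Dormant and without Jag1. Tyrobp lost it without Dormant. The higher count was 11 without Primary, 18 without Dormant and 6 without Jag1. The lower count was 27 without Recurrent and 6 without Jag1. Without the library block edgeR called 0 genes in either direction, with 65 at an unadjusted p under 0.05, and DESeq2 with the block called 25 higher and 4 lower.

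Within the gamma-delta T cells, Cd163l1 split off a small set. This split was chosen after the values were seen and is a description. A Cd163l1 UMI was found in 2 Primary, 5 Dormant, 16 Long-term dormant, 1 Recurrent, 8 IgG and 16 Jag1 cells, 48 in all. Their median depth was 3254 UMIs and that of the other 476 cells 3190, but within libraries it differed. It was 1275 against 2104.5 UMIs in Long-term dormant and 4970 against 6029 in Jag1, so lower detection in the 48 cells is not matched for depth. Of the 48 cells, 23 had Blk, a kinase of the Src family needed by interleukin 17 producing gamma-delta cells, against 4 of the 476. Il1r1, the interleukin 1 receptor, was found in 20 and 7 cells. Il17a, the cytokine itself, was found in 10 of the 48 and in 0 of the 476. These counts pool both kits. In Long-term dormant Blk, Il1r1 and Il17a were in 3, 5 and 2 of the 16 cells with Cd163l1 and in 1, 1 and 0 of the 14 without. In Jag1 they were in 13, 10 and 5 of the 16 with it and in 2, 3 and 0 of the 93 without. The other set of genes went the opposite way. Xcl1 was found in 3 of the 48 and 266 of the 476 cells, Nkg7 in 8 and 412, Klrd1 in 5 and 343, Fcer1g in 5 and 303, and Cd27 in 5 and 257.

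**Figure D4:**
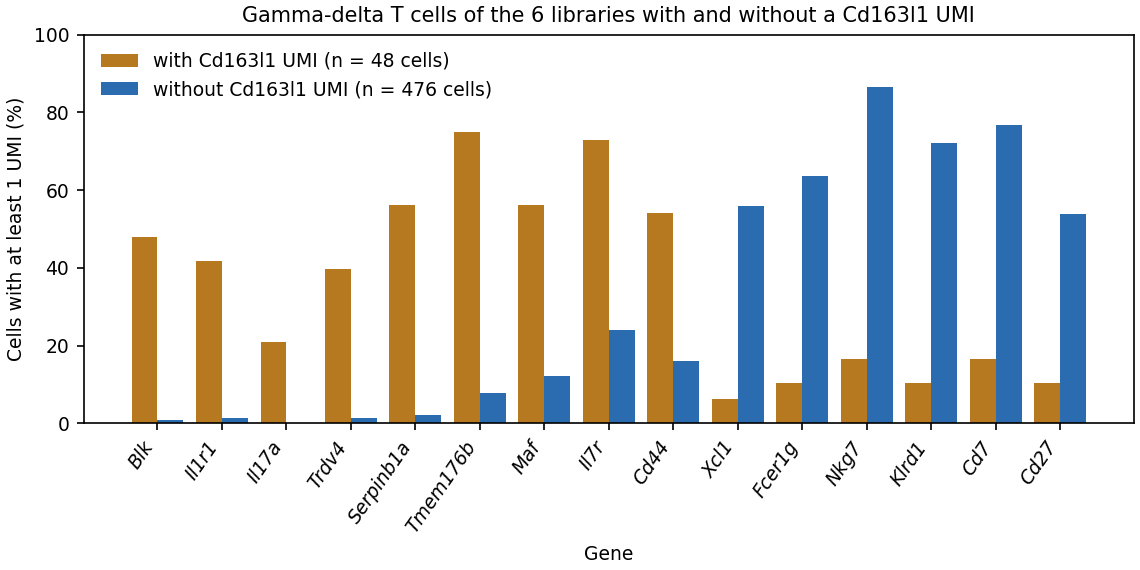
Percent of gamma-delta T cells with at least 1 UMI of each gene (vertical axis) among the 48 cells with a Cd163l1 UMI and the 476 without, pooled over the 6 libraries. Blk, Il1r1, Il17a and Trdv4 are higher in the cells with Cd163l1, and Xcl1, Fcer1g, Nkg7, Klrd1, Cd7 and Cd27 in those without. Of the 19 cells with Cd163l1 and Trdv4, 18 came from IgG and Jag1, and 0 of the 16 Long-term dormant cells with Cd163l1 had Trdv4. Blk was in 13 of the 16 Jag1 and in 3 of the 16 Long-term dormant cells with Cd163l1.

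A gamma-delta T cell was counted as type 17 or type 1 when it had a UMI of at least 2 of 12 genes of that kind. The type 17 genes included Il17a, Il17f, Il23r, Il1r1, Ccr6, Blk, Sox13, Cd163l1, 5830411N06Rik, Ramp1 and Actn2. The type 1 genes were Ifng, Tbx21, Eomes, Cd27, Il2rb, Cxcr3, Ccl5, Xcl1, Nkg7, Klrd1, Klrk1 and Klrc1. The type 17 share was 6%, 2.83%, 50%, 2.04%, 12.2% and 17.4%, and the Long-term dormant value had an interval of 31.3 to 68.7. The type 1 share was 84%, 96.2%, 40%, 98.0%, 97.3% and 99.1%. With these definitions Long-term dormant had the lowest type 1 and the highest type 17 share of the 6 libraries. When 3 genes were asked for, its type 17 share was 16.7% (5.64 to 34.7), beside 14.7% in Jag1 and 10.8% in IgG, so the intervals overlapped, while its type 1 share stayed lowest at 36.7%. Of its 12 cells that were type 17 alone, 11 had Cd163l1 and 9 had Ramp1, and Ramp1 was also in 25 of the 42 Primary cells that were type 1 alone. Type 17 cells of Long-term dormant were mostly not type 1 as well, 12 of 15, whereas 18 of the 19 in Jag1 and 7 of the 9 in IgG met both definitions. At equal depth, with each cell thinned to 1000 UMIs, 5 of the 6 in Long-term dormant, 8 of the 14 in Jag1 and 5 of the 5 in IgG were type 17 alone. Thinning gave Long-term dormant a type 17 share of 26.1% (23 cells), against 0% to 13.0% in the others, and a type 1 share of 43.5% against 77.6% to 87.7%.

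**Figure D5:**
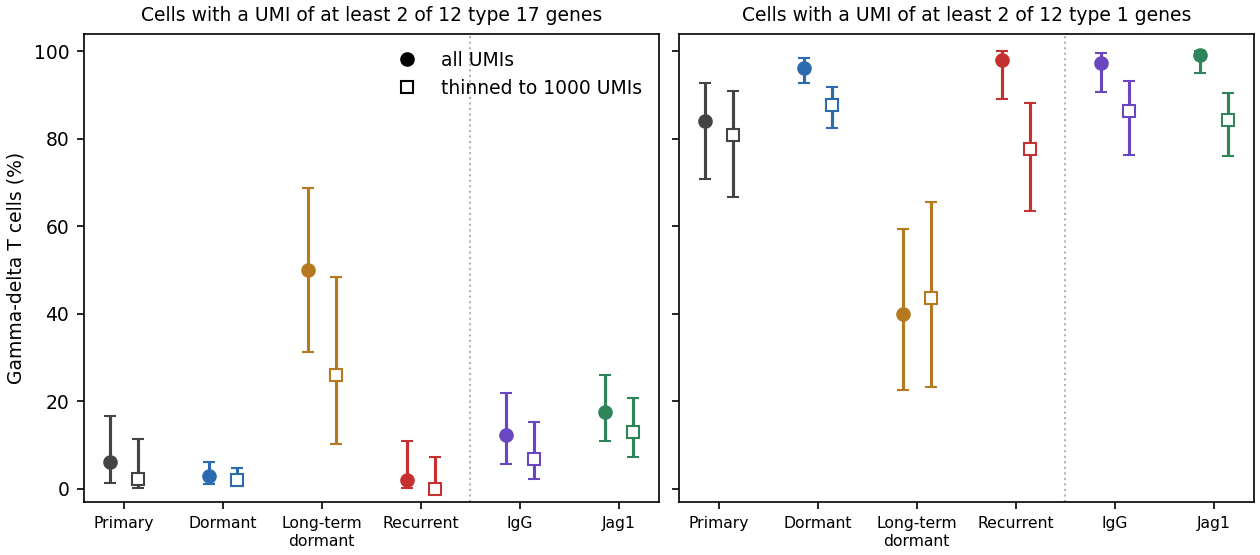
Percent of gamma-delta T cells (vertical axis) with a UMI of at least 2 of 12 type 17 genes and of 12 type 1 genes in each library, with all UMIs (filled circles) and after thinning to 1000 UMIs per cell (open squares). Bars are 95% Clopper-Pearson intervals. Long-term dormant has the highest type 17 share (50%) and the lowest type 1 share (40%).

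Promoters of 1 gene from each programme are shown for short motifs of transcription factors. The windows are the 250 bases before the gene start in RefSeq's table on GRCm38.p6. In the Il17a promoter (chr1:20730655-20730904, plus strand) the capitals mark the reverse complement of AGGTCA, the core of sites bound by many nuclear receptors, 120 bases before the start. In the Xcl1 promoter (chr1:164935523-164935772, minus strand, printed in the direction of transcription) the capitals mark GGTGTGA, the core of the T-box motif bound by T-bet and eomesodermin, 188 bases before the start.
Il17a: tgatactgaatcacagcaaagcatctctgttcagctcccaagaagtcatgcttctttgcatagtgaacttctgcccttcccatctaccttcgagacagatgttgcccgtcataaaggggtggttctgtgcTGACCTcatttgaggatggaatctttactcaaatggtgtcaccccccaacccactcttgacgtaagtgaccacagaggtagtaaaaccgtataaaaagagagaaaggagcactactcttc
Xcl1: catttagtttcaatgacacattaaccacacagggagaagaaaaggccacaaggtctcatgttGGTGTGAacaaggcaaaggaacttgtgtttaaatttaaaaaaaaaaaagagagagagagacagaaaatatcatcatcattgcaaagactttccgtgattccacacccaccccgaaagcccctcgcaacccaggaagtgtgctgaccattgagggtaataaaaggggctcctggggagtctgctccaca

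On either strand, AGGTCA occurred in 14.0% of 32851 such promoters, for 3 of 8 type 17 genes searched (Il17a, Il17f and Il23r) and for 0 of 8 type 1 genes. GGTGTGA occurred in 3.33% of all promoters, for 2 of the 8 type 1 genes (Nkg7 and Xcl1) and for 0 of the 8 type 17 genes. These sets differ from those counted above. The type 1 set was drawn up with Fcer1g, Cd7 and Gzmb in place of Ifng, Tbx21 and Eomes. The type 17 set was drawn up with Maf, Tmem176a, Tmem176b, Serpinb1a and Il7r in place of Ccr6, Sox13, 5830411N06Rik, Ramp1 and Actn2. A gene counted if any of its promoters matched, so the counts and the percentages are not on 1 scale. A match is a run of letters and not a measured site.

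Variable genes were caught in few cells. At least 1 UMI of a gamma variable gene was found in 20%, 7.08%, 3.33%, 18.4%, 52.7% and 43.1% of the cells. The antibody libraries were deeper and made with the later kit, so no order between the tables is read from these shares. Trgv2 was the gamma variable gene found in most cells there, in 22 IgG and 32 Jag1 cells. Tcrg-V6, the gene of a fetal wave that makes interleukin 17, was found in 7 cells, all of the antibody libraries. Of these, 6 had a UMI of its usual partner Trdv4, 6 of Cd163l1 and 0 of Xcl1. Tcrg-V1 cells were of the other kind, with Xcl1 in 19 and Nkg7 in 30 of 32 cells, and so were Tcrg-V4 cells, with Xcl1 in 12 and Nkg7 in 16 of 17.

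From Primary to Dormant, gamma-delta T cells differed in both chemokine and circulation genes. Of 3498 genes with at least 20 UMIs over both libraries, 16.4% were at least 2-fold higher and 14% at least 2-fold lower. Ccl5 was at 563 CPM in Primary (92 UMIs) and 7009 CPM in Dormant (4118 UMIs), a log2 ratio of 3.63 (3.34 to 3.95). Ccl5 was also higher in Dormant in other cells, at 12234 against 2657 CPM in CD8 T cells and 4003 against 304 CPM in all cells other than gamma-delta T cells. Of the list of naive and circulating T cells, 5 of 7 genes were at least 2-fold higher and 0 lower in Dormant, with a median of 1.95 beside -0.08 over all genes. Among them, Klf2, a factor that maintains circulation, had 192 against 8 (2.65, 1.73 to 3.97). Ly6c2 followed with 149 UMIs against 1 (4.79, 2.87 to 10.69) and Cd27 with 207 against 9 (2.60, 1.72 to 3.83). Klf2, Ly6c2 and Cd27 reached the minimum of 20 UMIs through Dormant alone.

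Genes of the epidermal list were lower in Dormant, while the other lists of effector and tissue genes divided. Of the cytotoxic list 1 of 5 genes was at least 2-fold higher and 1 lower (median -0.11), of the tissue residence list 4 of 10 higher and 2 lower (median 0.30), and of the natural killer list 4 of 4 higher. Gzmb fell from 790 to 81.7 CPM (-3.26, -3.78 to -2.78) and Xcl1 from 1848 to 392 CPM (-2.24, -2.49 to -1.99). Of the epidermal list, 5 of 7 genes were at least 2-fold lower, among them Itgae (-1.85, -2.69 to -1.0). The type 17 list had 1 of 7 genes higher and 3 lower. Genes of tissue handling moved with this comparison, 8 of 13 at least 2-fold higher in Dormant, Dnajb1 by 2.95 (2.21 to 3.93). RNA of other cells moved too. Of the stromal list 5 of 5 genes were at least 2-fold higher in Dormant, and of the myeloid list 7 of 8 were lower. The summed myeloid list was 7265 CPM in Primary and 1741 CPM in Dormant gamma-delta cells, with Apoe in 86% and 19.8% of cells, and Igkc of plasma cells was in 0% and 61.8%. Igkc in Dormant CD8 T cells was 4845 CPM, above the 3210 CPM of the gamma-delta cells. The part of handling and free RNA in the other differences was not tested.

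From Dormant to Long-term dormant, the type 17 genes were higher as a group. The Long-term dormant sum rests on 30 cells and 66131 UMIs. Of 3161 genes, 17.3% were at least 2-fold higher and 12.1% at least 2-fold lower. All 8 type 17 genes with at least 20 UMIs were at least 2-fold higher, with a median of 2.31 beside 0.14 over all genes. Cd163l1 had 28 UMIs against 7 (5.08, 3.92 to 6.59), from 16 and 5 cells, and reached the minimum of 20 UMIs through Long-term dormant alone. Tmem176b (3.42, 2.49 to 4.38), Cd44, a receptor of tissue matrix on activated T cells (3.31, 2.49 to 4.13), Il7r (2.22, 1.46 to 2.92) and Rora, a nuclear receptor gene (1.91, 1.06 to 2.67), followed. Other T cells moved too. The summed type 17 list was 3236 against 494 CPM in gamma-delta cells and 823 against 496 CPM in CD8 T cells. In CD4 T cells Tmem176b was at 164 against 65.9 CPM, Cd44 at 246 against 120, Il7r at 157 against 54.1 and Rora at 246 against 132. Maf and Ramp1 went the other way there, at 44.8 against 203 and 239 against 306 CPM. The cytokine Il17a was below the minimum, with 4 UMIs in 2 Long-term dormant cells and 6 in 2 Dormant cells, and Il17f, Il22 and Il23r had 0 UMIs in both.

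Type 1 genes went the other way, 8 of 14 at least 2-fold lower and 0 higher, with a median of -1.16. Ccl5 was at 1648 against 7009 CPM (-2.08, -2.38 to -1.81), Cd27 had 4 UMIs against 207 (-2.38, -4.43 to -1.16), and Xcl1 7 against 230 (-1.79, -3.22 to -0.82). The kinase gene Lck had 2 UMIs against 115 (-2.38, -5.76 to -0.81). In CD4 T cells of the same libraries Ccl5 was at 791 against 1839 CPM, Cd27 at 22.4 against 179, Xcl1 at 29.8 against 96.3 and Lck at 82.1 against 282. The summed type 1 list was 3372 against 10697 CPM in gamma-delta cells and 8039 against 15969 CPM in CD8 T cells. The part of a shift shared with other T cells was not tested. Fibroblast genes moved with this comparison. Col3a1 was in 53.3% of Long-term dormant and 7.55% of Dormant gamma-delta cells, at 1089 and 397 CPM, and 49 of the 72 Long-term dormant UMIs came from 1 cell. CD8 T cells of Long-term dormant held more, 2610 CPM, and Cd163l1 was at 0 in them. Ctsk had its 26 UMIs in 1 cell, and Fbn1 and Gas7 had 35 and 37 UMIs in 3 cells each. S100a4, a calcium-binding protein of motile cells, was broader, with 142 UMIs in 23 of the 30 cells against 41 UMIs in Dormant (4.93, 4.43 to 5.48). Tnfrsf18, the costimulatory receptor GITR, had 3 UMIs against 188 (-2.60, -5.11 to -1.25), and Smad7, an inhibitor of TGF-beta signalling, 5 against 318 (-2.70, -4.47 to -1.60).

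Recurrent gamma-delta T cells were also set against Primary ones. Of 1855 genes, 4.91% were at least 2-fold higher and 3.83% at least 2-fold lower in Recurrent. These shares were the lowest of the 5 stage pairs compared. The log2 ratio was -0.03 for Fcer1g, 0.03 for Nkg7, -0.41 for Xcl1 and 0.75 for Gzmb. Ly6c2 was higher with 20 UMIs against 1 (3.68, 1.58 to 9.60), as were the immediate early factor Nr4a2 (2.11, 1.16 to 3.31) and Crem (2.03, 1.38 to 2.80), a repressor of cyclic AMP responses. Both libraries carried macrophage RNA, with Apoe in 86% and 71.4% of gamma-delta cells.

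Against Dormant, Recurrent cells differed in 11.1% of 3561 genes at least 2-fold higher and 11.6% lower. Gzmb was at 1327 against 81.7 CPM (4.01, 3.57 to 4.50), and Xcl1 higher by 1.83 (1.56 to 2.09). Of the circulating list, 6 of 7 genes were lower. These ratios share the Dormant library with the Dormant against Primary ones. Markers of handling and of other cells moved with them, with 8 of 13 handling genes and 5 of 5 stromal genes lower and 6 of 7 myeloid genes higher in Recurrent. Against Long-term dormant, where 11.7% of 1385 genes were higher and 11.2% lower, 6 of 7 type 17 genes were lower. Of 11 type 1 genes 5 were higher and 2 lower. Cd163l1 and Cd44 reached the minimum of 20 UMIs through Long-term dormant alone, so the type 17 count is partly set by that minimum. Cd163l1 had 2 UMIs against 28 (-4.91, -8.32 to -3.22). There too 6 of 7 myeloid genes were higher and 4 of 4 stromal genes lower. The part of these markers in both comparisons was not tested.

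Jag1 and IgG gamma-delta T cells differed in cytotoxic and circulation genes. Of 4908 genes, 2.51% were at least 2-fold higher and 4.89% at least 2-fold lower in Jag1, and the median over all genes was -0.10. Cytotoxic genes were lower in 4 of 8, with a median of -1.03. Gzmb was at 87.7 CPM in Jag1 and 277 CPM in IgG (-1.65, -2.15 to -1.17). Gzma was lower, at -1.34 (-1.59 to -1.10), although 123 of its 237 Jag1 UMIs came from 1 cell. Xcl1 was at 319 and 989 CPM (-1.63, -1.89 to -1.38), Fcer1g lower at -1.16 (-1.43 to -0.89) and Itgae at -1.16 (-1.70 to -0.63). Of the handling genes 3 of 12 were lower and 0 higher (median -0.55), and of the myeloid genes 2 of 2 were lower (median -1.73). Their part in the other differences was not tested.

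Of the circulating list 3 of 9 genes were at least 2-fold higher and 1 lower in Jag1, with a median of 0.74. Klf2 was at 456 against 204 CPM (1.15, 0.79 to 1.55). Ccr7, the receptor that guides T cells to lymph nodes, had 121 UMIs against 10 (2.67, 1.81 to 3.83), and S1pr1, which guides them out, 21 against 2 (2.24, 0.50 to 5.67). Ccr7 and S1pr1 reached the minimum of UMIs for a ratio through Jag1 alone. In the gamma-delta cells Ccr7 was at 186 CPM in Jag1 and 27.9 CPM in IgG, while CD8 T cells of the same arms had 163 and 165 CPM. All other cells of the 2 libraries had Ccr7 at 209 CPM in Jag1 and 273 CPM in IgG, above the gamma-delta level in both.

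Of 15 type 17 genes, 4 were at least 2-fold higher and 1 lower in Jag1, with a median of 0.44. Il17a had 55 UMIs in 5 Jag1 cells, 32 of them in 1 cell, against 2 UMIs in 1 IgG cell (3.61, 2.00 to 7.00). Il1r1 had 27 UMIs against 4 (1.75, 0.37 to 3.87) and Blk 47 against 10 (1.32, 0.37 to 2.52). Il17a, Il1r1 and Blk reached the minimum of UMIs for a ratio through Jag1 alone. The count of higher type 17 genes is thus partly set by that minimum. The type 17 share of 17.4% in Jag1 (interval 10.8 to 25.9) overlapped the 12.2% of IgG (5.71 to 21.8). Of the Notch list, 0 of 5 genes were at least 2-fold higher or lower, with a median of 0.26. Notch1 was at 61.6 CPM in Jag1 and 47.5 CPM in IgG, and Nrarp, a target of Notch signalling, at 69.3 and 89.4 CPM. Hes1, another target, had 1 UMI in Jag1 and 8 in IgG from 2 cells, below the minimum for a ratio.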

How the data were processed

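Single-cell RNA of 6 mouse libraries, 1 per group, was deposited by the authors as raw UMI counts in 2 tables of 22547 genes each, 1 per kit version. Per the submitters' processing notes, Cell Ranger 3.1.0, FastQC and the mm10 build were used. 0 columns belonged to no sample. Deposited totals were 9735651 to 41259292 UMIs per library.

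Cells were filtered and chosen by the thresholds given above with Python 3.11.15, numpy 2.4.6 and scipy 1.17.1. The members and gene lists were chosen with earlier results of these data known. Counts were summed per class and library and scaled to CPM. Classes within a library were compared with edgeR 4.0.16 (R 4.3.3; TMM, filterByExpr, library block, at least 20 cells, 12 rule genes left out), adjusted over all genes tested. DESeq2 1.42.0 was an alternative. Between libraries, ratios used a prior of 0.5 counts and at least 20 UMIs over both libraries. A gene could reach this minimum in 1 library alone, so list counts can rest on genes that entered through the library where they were high. Clopper-Pearson and ratio intervals (95%) cover counting error only.

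Genes were named by rule: list members, and the 12 highest and 8 lowest called log2 fold changes with a mean of at least 50 CPM. Between libraries up to 6 per direction were named, and candidates for free RNA (over 5 times higher in the library's other cells) were left out of that rule. The edgeR step was tested on simulated data. Alternatives changed normalization, filters, depth, membership and the libraries used. Those that asked for a Tcrg-C UMI, left out shared barcodes or, for levels, left out Scrublet doublets (scanpy 1.11.5) were chosen after seeing the data. Sequences were aligned with biopython 1.88, and figures were drawn with matplotlib 3.10.9. Some genes of these lists were counted with them and are not reported here by name.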

Additional observations from a re-analysis of the deposited data

How the results depend on the processing

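No group had a replicate, and the Long-term dormant values rest on 30 cells. Depth limits every share that asks for a missing UMI. No paired analysis was possible between libraries because each group is 1 library; within libraries the block is the library itself. Where the settings below moved a value, the cause was not tested, except that fewer libraries or cells also give fewer genes tested. Of the gamma-delta shares of CD3-positive cells, 40 stayed within the counting error of the reported value and 14 did not. Thinning gave 9.48% in Primary. With all cells as denominator the shares of Primary, Dormant, Long-term dormant and Recurrent were 1.16%, 6.47%, 0.50% and 1.05%. Asking for 2 Trdc UMIs gave 7.02% in Dormant, 3.46% in Long-term dormant and 4.82% in Recurrent, and 2 CD3 UMIs gave 10.3% in Recurrent. Asking for a Tcrg-C UMI gave 5.14% in Dormant and 3.68% in Long-term dormant, with 5.19% in Primary and 6.43% in Recurrent, and for IgG and Jag1 2.80% and 3.43%, and asking for no Trac UMI gave 3.31% in IgG.

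The type 17 share was 6.25% in Dormant with a Tcrg-C UMI, 26.1% in Long-term dormant after thinning and 16.7% with 3 genes asked for, and 0% in Recurrent under both. The type 1 share after thinning was 87.7%, 77.6%, 86.3% and 84.3% in the Dormant, Recurrent, IgG and Jag1 cells. With 3 genes it was 91.0% in Dormant, 87.8% in Recurrent and 92.7% in Jag1, and without Trac cells 100% in Recurrent.

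Median log2 ratios of the type 1 list turned to -0.063 for Dormant against Primary with a Tcrg-C UMI. For Recurrent against Dormant they turned to -0.10 with a minimum of 5 UMIs and to -0.13 without Scrublet doublets. For Recurrent against Long-term dormant the median was 1.32 by mean per-cell CPM. The type 17 median of Long-term dormant against Dormant was 3.06 by mean per-cell CPM and 2.96 with a minimum of 5 UMIs. For Recurrent against Dormant it was -1.04 without Scrublet doublets and turned to 0.39 with a Tcrg-C UMI, as did Recurrent against Primary, to 0.047. For Recurrent against Long-term dormant it was -3.53 by mean per-cell CPM, -3.87 with 5 UMIs, -3.65 without Trac cells, -3.18 without the deepest cell and -3.21 without Scrublet doublets.

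Among single genes, 4229 ratios stayed within their counting error, 135 moved further and 10 turned. With a Tcrg-C UMI, Ccl3 turned to 1.57 for Dormant against Primary and Apoe to 0.26 for Recurrent against Primary. By mean per-cell CPM, Hspa1a turned to -0.22 for Dormant against Primary and Dcn to 0.35 for Long-term dormant against Dormant. Without the deepest cell Dcn turned to 1.12, and for Recurrent against Primary Apoe turned to 0.35 and Lyz2 to 0.071. Without Scrublet doublets C1qc turned to -0.17 and Ccl4 to -0.13 for Recurrent against Dormant, and C1qc to -0.046 for Recurrent against Long-term dormant.

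Against CD8 T cells, DESeq2 called 84 higher and 38 lower, edgeR without a filter 202 and 293, the stage libraries alone 5 and 6, and no library block 3 and 1. A Tcrg-C UMI left 39 lower. Leaving out 1 library gave 32 to 136 higher and 22 to 86 lower, with 33 and 22 without IgG and 32 and 25 without Jag1. Against CD4 T cells, no filter gave 292 and 505, the stage libraries 21 and 50, no library block 17 and 24, and a Tcrg-C UMI 91 higher. Leaving out 1 library gave 37 to 213 higher and 66 to 247 lower, the lowest without Jag1. Against killer lymphocytes, DESeq2 called 25 and 4, no filter 23 and 39, and the stage libraries 6 and 6. No library block gave 0 and 0 with edgeR, with 65 genes at an unadjusted p under 0.05. No Trac UMI gave 23 lower and no shared barcodes 32 higher. Leaving out 1 library gave 6 to 40 higher and 6 to 27 lower, with 6 and 6 without Jag1. Of single gene calls, 2829 kept their side of the threshold, 403 lost the call and 34 gained one.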

Other observations

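Among genes of Notch signalling, of which the antibody arms target a ligand, Hes1 had 73 UMIs in 25 Dormant gamma-delta cells, 0 in Primary and 2 in Recurrent. All other Dormant cells held it at 166 CPM against 124 CPM in the gamma-delta cells, and the part of free RNA was not tested. Nrarp had 90 UMIs in Dormant and 8 in Primary, a log2 ratio of 1.57 (0.61 to 2.90). Against CD4 T cells, edgeR called Nrarp higher in gamma-delta T cells (log2 fold change 2.01 ± 0.45, adjusted p = 0.0113, 5 of 6 libraries) and Rbpj, which codes for the DNA-binding partner of Notch, lower (-1.51 ± 0.21, adjusted p = 0.000373, 6 of 6 libraries). Neither passed against CD8 T cells, with adjusted p = 0.118 and 0.450.

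Of the list of repair and growth factor genes, 4 of 16 were tested against CD8 T cells. Tgfb1, the gene of transforming growth factor beta 1, was higher by 0.50 ± 0.13 (adjusted p = 0.0328, 5 of 6 libraries) and Areg was lower, at -2.13 ± 0.42 (adjusted p = 0.00745, 4 of 6 libraries, with 0 CPM in both classes of Recurrent). Stmn1, a microtubule regulator of dividing cells, had 46 UMIs in Jag1 and 7 in IgG (log2 ratio 1.77, 0.70 to 3.25), and 60 UMIs in Recurrent against 30 in Dormant (2.74, 2.09 to 3.43).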
